A study of Mus musculus with 2 samples.

Results

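Immediate early genes are the genes that cells transcribe within minutes of a stimulus without first making new protein. In neurons, synaptic activity and growth factors switch them on through calcium and MAP kinase signalling, which act on CREB and on serum response factor at their promoters. Their transcripts are short-lived, and most of their products are transcription factors that start a later wave of gene expression. In the cerebellum, Fos and its relatives are widely used to mark recently active neurons, and several of the same genes are used by dividing progenitors and glia that respond to growth factors.

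The 10 genes described here were taken by their platform symbol: Fos, Fosb, Jun, Junb, Egr1, Arc, Nr4a1, Dusp1, Btg2 and Ier2. All 10 had a value, each from 1 probe set, among 19503 genes on the table. Ribosome-bound RNA (the TRAP fraction) and the RNA left behind by the beads (the unbound fraction) were each measured on 1 Affymetrix whole-transcript array. Both came from pooled cerebella of Tg(Pcp2-L10a-Egfp) mice at postnatal day 7, homogenised in cycloheximide, which holds ribosomes on their mRNAs. In these mice the promoter of the Purkinje cell gene Pcp2 drives a green fluorescent fusion of ribosomal protein L10a. Antibodies against the tag pull down the tagged ribosomes. The TRAP fraction is thus enriched for mRNA on ribosomes of the cells in which that promoter is active. The unbound fraction holds the remaining RNA of every cell type, Purkinje cells included, so it is neither whole cerebellum nor a preparation without Purkinje cells. The sources used here do not give the number of animals pooled, or say whether both fractions came from 1 pool.

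Values are the deposited log2 signals, and a difference is always TRAP minus unbound on that scale. Since neither fraction has a replicate array, no difference has an error or a test, and the order of neighbouring genes cannot be set against any spread. A gene was described as different when the arrays were at least 2-fold apart. The floor was 7.08, the median over both arrays' probe set values. It is not a detection call, but a fold that involves a value below it is uncertain. In RNA of this kind, fewer cells of a type and less RNA per cell cannot be told apart. The purification was checked on its own markers. Pcp2 read 12.98 in TRAP against 11.65 in unbound, and Rpl10a, the gene of the tagged protein, 12.67 against 12.13. Of 16 measured Purkinje markers, 15 were higher in TRAP, 6 of them by at least 2-fold. Cbln1, a listed cerebellin that granule cells make, was the exception, with 9.62 in TRAP and 11.31 in unbound. Markers of other cell types also gave signal in TRAP. Their summed linear signal there was 10575 for granule neurons and 8504 for astroglia, against 83408 for the Purkinje markers. A TRAP value therefore need not come from Purkinje cells alone.

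Most of the immediate early genes read lower in the TRAP fraction than in the RNA left unbound. Of the 10 genes, 8 were lower in TRAP, 3 of them (Dusp1, Btg2 and Nr4a1) by at least 2-fold, and none was at least 2-fold higher in TRAP. The AP-1 genes Fosb and Junb were the 2 with a higher TRAP value, and both lay below the floor on both arrays. Over all 10 the median difference was -0.82, a 1.76-fold difference, and the range ran from -2.25 to 0.55. Of all 19503 genes, 4.58% favoured TRAP and 11.0% favoured unbound by 2-fold or more, while 57.6% were higher in TRAP and 41.9% higher in unbound by any amount. The median difference over all 19503 genes was 0.10. Over the 10524 genes above the floor on at least 1 array, 8.11% favoured TRAP and 18.6% favoured unbound by 2-fold or more, and the median difference was -0.13. At a threshold of 1.5-fold 7 of the 10 members were lower in TRAP, where 19.5% of all genes were, and at 4-fold Dusp1 was, where 2.37% were. These shares and the counts at 1.5-fold and 4-fold depend on the scaling, as given at the end.

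**Figure D1:**
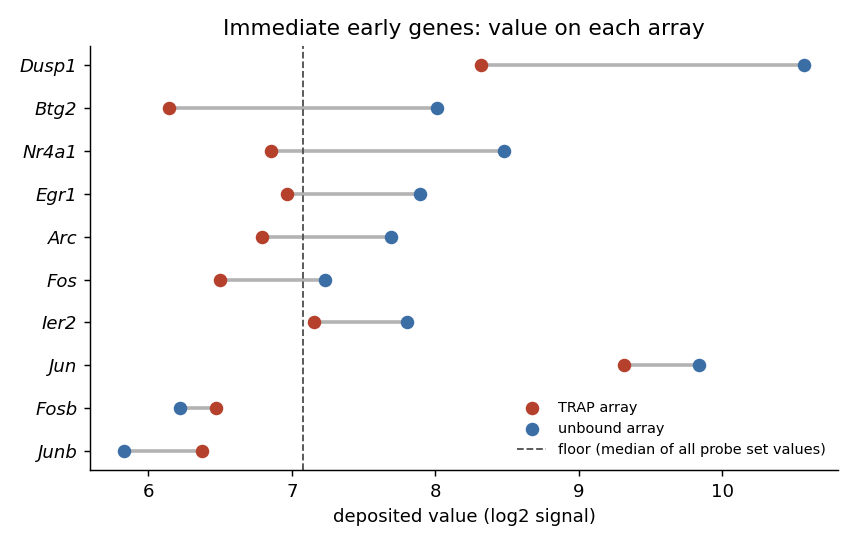
Deposited log2 signal (horizontal axis) of each immediate early gene on the TRAP array (red) and the unbound array (blue), 1 array each, ordered by difference; the dashed line is the floor of 7.08. Dusp1 shows the widest gap with both values above the floor, and for Fosb and Junb the TRAP value is the higher one with both values below it. Positions of different genes on the axis are not comparable, because each has its own probes.

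The floor divides the members unevenly. Jun, Dusp1 and Ier2 lay above it on both arrays. Fos, Egr1, Arc, Nr4a1 and Btg2, 5 genes in all, lay above it in unbound and below it in TRAP, a pattern shown by 1247 of the 19503 genes, against 520 with the opposite one. The same floor served both arrays, whose medians were 6.92 (TRAP) and 7.25 (unbound), and this offset favours that pattern. The 5 genes passed through the array on which they were higher, so their direction follows from passing, and counts and medians of the immediate early genes are given over all 10. Of the 3 genes that were at least 2-fold lower in TRAP, Dusp1 alone had both values above the floor, where 13.0% of 8757 genes differed as much in that direction.

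The AP-1 genes come first by role. AP-1 is a dimer of a Fos and a Jun protein, or of 2 Jun proteins, that binds DNA through basic leucine zippers. Fos, whose protein needs a Jun partner to bind DNA, read 6.50 in TRAP and 7.23 in unbound, a difference of -0.73 or 1.66-fold. Its TRAP value lay below the floor and its unbound value just above it. Fosb, from which the stable splice form deltaFosB is made, read 6.47 in TRAP and 6.22 in unbound, a difference of 0.25. A single probe set gives no separate value for the splice forms. Jun, the partner that can also pair with itself, read 9.32 in TRAP and 9.84 in unbound, 1.43-fold lower in TRAP. Junb, a Jun protein that often opposes Jun at its targets, read 6.38 in TRAP and 5.83 in unbound, 1.46-fold higher in TRAP. None of the 4 AP-1 genes reached 2-fold, so within this family the directions were split at sizes for which 1 array per fraction gives no error.

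The other transcription factor genes were lower in TRAP. Egr1 encodes a zinc finger factor that binds GC-rich promoters after growth factor or synaptic stimulation. It read 6.96 in TRAP and 7.89 in unbound, 1.90-fold apart and just short of the 2-fold mark. Nr4a1 encodes Nur77, an orphan nuclear receptor whose activity is set mainly by how much of it is made. It read 6.85 in TRAP and 8.48 in unbound, a difference of -1.63 or 3.09-fold. Both TRAP values lay below the floor and both unbound values above it, so the size of these differences is uncertain.

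The remaining members encode effectors and feedback proteins. Arc, the cytoskeleton-associated protein that promotes AMPA receptor endocytosis and whose mRNA travels into dendrites, read 6.79 in TRAP and 7.69 in unbound, 1.87-fold lower in TRAP. Dusp1 encodes a nuclear phosphatase that switches off MAP kinases and so ends the signal that induced it. It read 8.32 in TRAP and 10.57 in unbound, a difference of -2.25 or 4.76-fold, the largest among the members. Of 10524 genes above the floor, 286 had a lower difference, which is 2.72%. Btg2, an antiproliferative protein that recruits the CCR4-NOT deadenylase and marks neural progenitors about to make neurons, read 6.14 in TRAP and 8.02 in unbound, a difference of -1.87 or 3.66-fold. Its TRAP value lay below the floor. Ier2, a nuclear protein of the growth factor response, read 7.15 in TRAP and 7.81 in unbound, 1.57-fold lower in TRAP.

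**Figure D2:**
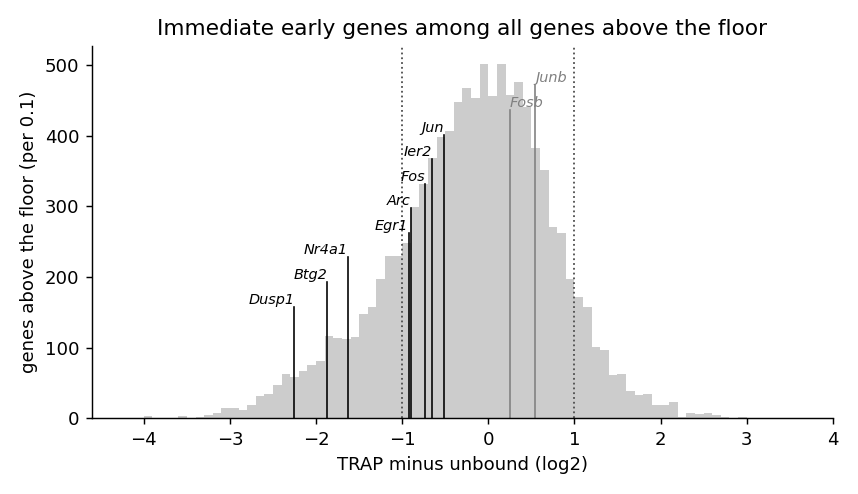
Histogram of the difference (TRAP minus unbound, log2; bins of 0.1) over the 10524 genes above the floor, with a line for each immediate early gene (black, above the floor on at least 1 array; grey, below it on both); line heights serve labelling only, and dotted lines mark 2-fold. Dusp1, Btg2 and Nr4a1 lie left of the 2-fold line and the other 7 genes between the lines.

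The table holds 2 arrays, so the pattern of a gene across samples is a single difference. Of the genes above the floor, 625 lay within 0.1 of the members' median difference of -0.82, so no gene is named for likeness to them.

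Promoter sequences are shown for the 3 genes that were at least 2-fold lower in TRAP, for Fos, whose induction is the textbook case, and for the pair with a higher TRAP value, Fosb and Junb. They are the 250 bases before the annotated start, from RefSeq on GRCm38.p6, read 5′ to 3′ on the gene's own strand. Windows were used for 7 of the 10 genes, these and Jun. Entries of members on a chromosome that was set aside were not used, so a gene outside the 7 may still have an entry. The windows are chr17:26508473-26508722 on the minus strand for Dusp1, chr1:134079156-134079405 on the minus strand for Btg2, chr15:101266596-101266845 on the plus strand for Nr4a1, chr12:85473640-85473889 on the plus strand for Fos, chr7:19310046-19310295 on the minus strand for Fosb and chr8:84978749-84978998 on the minus strand for Junb. Capitals mark 3 motifs searched on both strands: the cAMP response element TGACGTCA (CRE, the palindrome that CREB binds), its half-site TGACG, which lies within the full element, and the TATA box TATAAA. A half-site on the opposite strand reads CGTCA.
Dusp1: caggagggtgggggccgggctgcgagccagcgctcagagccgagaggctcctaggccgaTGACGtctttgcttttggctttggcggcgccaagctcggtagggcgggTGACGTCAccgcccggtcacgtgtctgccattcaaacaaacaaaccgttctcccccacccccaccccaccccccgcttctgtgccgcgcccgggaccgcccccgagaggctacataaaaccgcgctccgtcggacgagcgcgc
Btg2: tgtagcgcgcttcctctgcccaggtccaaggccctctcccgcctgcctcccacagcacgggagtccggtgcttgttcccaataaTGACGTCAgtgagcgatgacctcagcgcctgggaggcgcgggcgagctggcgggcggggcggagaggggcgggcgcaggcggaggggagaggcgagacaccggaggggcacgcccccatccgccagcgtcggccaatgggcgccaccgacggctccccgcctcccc
Nr4a1: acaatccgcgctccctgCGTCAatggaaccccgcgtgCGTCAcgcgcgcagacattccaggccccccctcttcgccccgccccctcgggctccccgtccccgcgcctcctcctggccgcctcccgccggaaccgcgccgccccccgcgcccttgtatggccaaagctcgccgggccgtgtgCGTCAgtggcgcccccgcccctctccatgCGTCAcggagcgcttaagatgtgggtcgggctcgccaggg
Fos: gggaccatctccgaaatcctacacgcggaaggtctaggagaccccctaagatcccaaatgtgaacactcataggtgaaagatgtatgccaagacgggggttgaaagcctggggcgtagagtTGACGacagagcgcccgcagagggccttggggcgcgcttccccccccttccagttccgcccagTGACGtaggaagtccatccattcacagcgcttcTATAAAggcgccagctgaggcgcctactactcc
Fosb: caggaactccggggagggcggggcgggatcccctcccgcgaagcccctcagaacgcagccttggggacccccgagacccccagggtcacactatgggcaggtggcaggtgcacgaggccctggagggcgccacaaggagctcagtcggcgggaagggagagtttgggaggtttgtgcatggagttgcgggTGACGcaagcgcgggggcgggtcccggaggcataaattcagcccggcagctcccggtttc
Junb: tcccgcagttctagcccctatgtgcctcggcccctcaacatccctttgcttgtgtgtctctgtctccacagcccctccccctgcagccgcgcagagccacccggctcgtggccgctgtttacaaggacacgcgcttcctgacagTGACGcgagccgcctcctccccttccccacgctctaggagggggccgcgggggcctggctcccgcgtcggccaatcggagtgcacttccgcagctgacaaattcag

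The full CRE was present in 2 of the 7 windows, those of Dusp1 and Btg2, and in 1.55% of all 32851 RefSeq promoter windows of that length. These are also the 2 genes with the largest differences, Btg2 with a TRAP value below the floor. A link between the element and the difference was not tested. In Dusp1 the element ran from 143 to 136 bases before the start, and in Btg2 from 166 to 159. A half-site was present in 6 of the 7 windows, all but that of Jun, and in 17.8% of all windows. Nr4a1 held 4 half-sites and no full element. Fos held 2, the nearer from 66 to 62 bases before the start, and a TATA box from 33 to 28. Fosb and Junb, which lay below the floor on both arrays, held 1 each. A link between the half-site and the differences was not tested either.

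Of the other motifs, the GC-rich EGR site GCGNGGGCG was present in 3 of 7 windows (Fosb, Nr4a1 and Btg2) and in 4.7% of all windows. The Sp1 core GGGCGG was present in 6 of 7, against 32.7%. It overlaps the EGR site in Fosb and in Nr4a1. The TATA box was present in 1 of 7, against 12.4%. The AP-1 site TGANTCA, present in 6.75% of all windows, and the CArG box of serum response factor, present in 1.47%, were in none of the 7. The promoters of Egr1, Arc and Ier2 were not searched, so no motif count covers them. The CArG box known from the Fos promoter lies farther upstream than this window. A match is a run of letters, and neither a match nor its lack says whether a factor was bound in these cells.

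Each member has relatives with similar proteins, and 20 of 21 such paralogues were measured. Of the 20, 13 were lower in TRAP, with 5 past 2-fold, and 1 was higher there by more than 2-fold. Their median was -0.35 as deposited, -0.017 with array medians subtracted and -0.068 after quantile normalization, and the number past 2-fold in unbound was 3 and 4 under those scalings. Over all 19503 genes the median was 0.10 as deposited, 0.43 with array medians subtracted and 0.065 after quantile normalization.

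The Fos and Jun relatives differed by less than 2-fold, as the members did. Fosl2 read 7.54 in TRAP and 7.85 in unbound, a difference of -0.31 that became positive after either median subtraction or quantile normalization. Jund, the Jun family gene that is made constitutively, read 9.50 in TRAP and 10.24 in unbound, a difference of -0.74. Fosl1 lay below the floor on both arrays.

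The EGR genes were split. Beside Egr1 at -0.93, Egr3 read 7.50 in TRAP and 7.13 in unbound, and Egr4 read 7.29 in TRAP and 6.71, below the floor, in unbound. Their differences of 0.36 and 0.58 were positive under each of the 4 scalings compared. Egr2, the family member known from Schwann cells and hindbrain patterning, lay below the floor on both arrays at 6.30 in TRAP and 6.51 in unbound.

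The NR4A genes were lower in TRAP. Nr4a2, which encodes Nurr1, known from dopamine neurons, read 7.63 in TRAP and 9.52 in unbound, 3.68-fold lower in TRAP with both values above the floor. Nr4a3 lay below the floor on both arrays, with 6.23 in TRAP and 6.90 in unbound.

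The MAP kinase phosphatases spanned both ends. Dusp5 and Dusp4, nuclear phosphatases like Dusp1, differed by -1.89 and -1.75, with Dusp5 at 8.63 in TRAP and 10.52 in unbound. Dusp16, which acts on JNK and p38, read 6.89 in TRAP and 8.16 in unbound, a difference of -1.27 that was -0.94 with array medians subtracted. Its TRAP value lay below the floor. Dusp6, the cytoplasmic ERK phosphatase, differed by -0.33. Dusp10, which also acts on JNK and p38, read 9.99 in TRAP and 9.33 in unbound. Dusp2, a nuclear phosphatase best known from activated lymphocytes, read 8.65 in TRAP and 6.72 in unbound, 3.82-fold apart with the unbound value below the floor. It was the 1 relative at least 2-fold higher in TRAP.

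The BTG and TOB genes, all antiproliferative, were each lower in TRAP. Btg1 read 10.75 in TRAP and 11.85 in unbound, a difference of -1.10, Tob1 differed by -0.97, and Tob2, at -0.36, turned positive after quantile normalization. Btg1 fell short of 2-fold, at -0.77, with array medians subtracted. Among the IER genes Ier5 differed by 0.05 and Ier5l by -0.47, and Ier3 lay below the floor on both arrays.

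**Figure D3:**
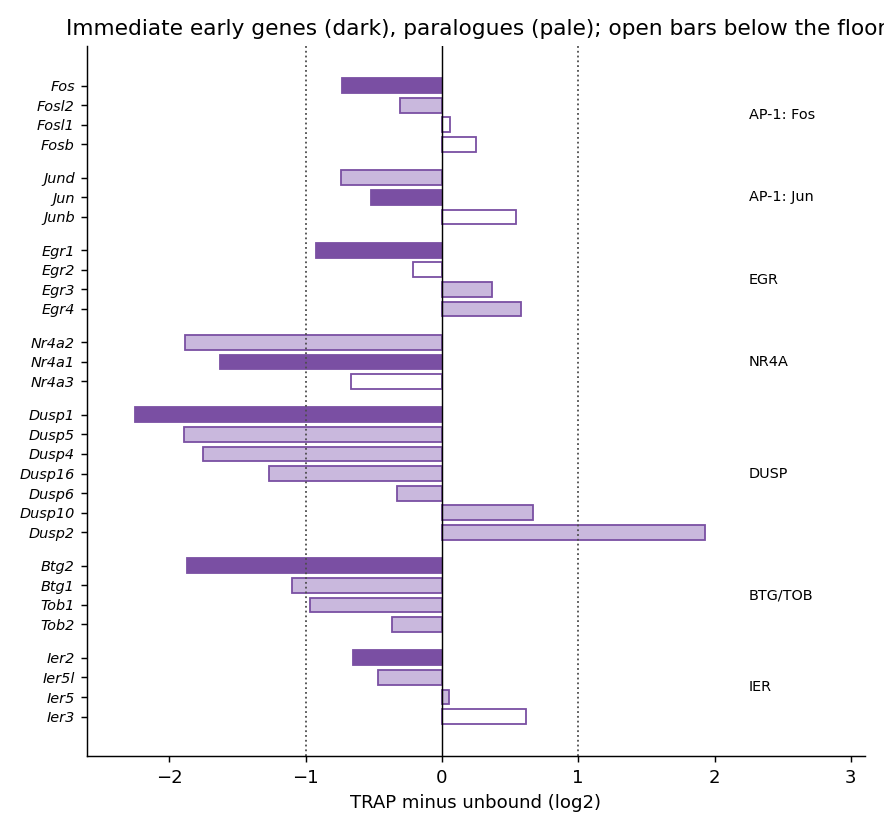
Difference (TRAP minus unbound, log2) of each immediate early gene (dark bars) and its measured paralogues (pale bars), grouped by family; open bars lie below the floor on both arrays and dotted lines mark 2-fold. The NR4A and BTG/TOB bars all point to unbound, whereas each of the other families holds bars in both directions, with DUSP running from Dusp1 at -2.25 to Dusp2 at 1.93.

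A wider set of genes induced by activity or growth factors held genes at both ends. Of 53 listed, 50 were measured, and 2 favoured TRAP and 11 favoured unbound by 2-fold or more, with a median of -0.068. Once array medians were subtracted, 6 favoured TRAP and 7 unbound, with a median of 0.26, against 10.1%, 6.8% and 0.43 over all 19503 genes. After quantile normalization 3 favoured TRAP and 7 unbound, with a median of 0.044, against 6.67%, 8.6% and 0.065 over all genes. At the upper end stood Nfil3, a repressor with a leucine zipper (9.03 in TRAP and 7.97 in unbound), Nptx2, a secreted synaptic pentraxin (7.35 in TRAP and 6.29 in unbound), Cebpb (0.98) and Id2, an inhibitor of helix-loop-helix factors also on the Purkinje list (0.92). The unbound values of Nptx2 and Cebpb lay below the floor, so the size of their differences is uncertain. At the lower end stood Zfp36l1 and Zfp36l2, which bind AU-rich elements and speed mRNA decay, with differences of -2.97 and -2.24. Klf6, a zinc finger factor, differed by -1.88 and Plk2, a kinase induced by synaptic activity, by -1.84.

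The signalling that induces these genes also had members at both ends. Of 43 genes of the MAP kinase, CREB, serum response factor and MEF2 branches, 32 were measured, all above the floor. Of these, 1 favoured TRAP and 8 favoured unbound by 2-fold or more. The median was -0.31. Once array medians were subtracted, 4 favoured TRAP and 2 unbound, with a median of 0.025, against 16.1%, 11.8% and 0.20 over all genes above the floor. After quantile normalization 2 favoured TRAP and 5 unbound, with a median of -0.37, against 11.8%, 14.1% and 0.045 over all genes above the floor. Mef2c and Mef2d, activity-dependent transcription factors of neurons, differed by 1.05 and 0.81. The value of Mef2d is the mean of 2 probe sets, at 0.21 and 1.41. The kinases that activate ERK, Map2k1 and Map2k2, differed by 1.00 and 0.69. Creb1, the factor that binds the CRE, read 8.45 in TRAP and 10.06 in unbound, a difference of -1.61. Elk4 and Elk3, partners of serum response factor, differed by -2.05 and -1.21, and Ep300, a histone acetyltransferase, by -1.31. The TRAP values of Elk4 and Elk3 lay below the floor. Srf itself read 9.04 in TRAP and 8.99 in unbound.

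Proteins that work with the members were measured as well. Among the 13 measured AP-1 dimer partners the median was 0.0226, and by 2-fold or more none favoured TRAP and 2 unbound, or 1 each with array medians subtracted. Jdp2, which represses AP-1 targets, read 8.81 in TRAP and 7.84 in unbound, and Atf4, a stress response factor, differed by 0.40. Nfe2l2, the antioxidant factor Nrf2, differed by -2.70 with its TRAP value of 6.30 below the floor, and Atf7 differed by -1.26. The 2 probe sets of Atf7 differed by -1.62 and -0.90. Among 14 partners of Egr1, Nr4a1, Btg2 and Arc the median was -0.45, or -0.12 with array medians subtracted, and 3 favoured unbound by 2-fold or more. Rxrb, a retinoid receptor, differed by 0.86, and Cacng2, the AMPA receptor auxiliary protein stargazin, by 0.43. Dnm2, the dynamin of endocytosis, read 8.31 in TRAP and 10.26 in unbound, and Rxrg, the retinoid receptor that pairs with NR4A proteins, 5.65 in TRAP and 7.50 in unbound. The TRAP value of Rxrg lay below the floor.

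Factors that act on AU-rich and other short-lived mRNAs were mostly lower in TRAP. Of 19 measured, 17 were lower, 7 by 2-fold or more, and the median was -0.55. Once array medians were subtracted, 13 were lower, 5 by 2-fold or more, and the median was -0.21. Elavl4, the neuronal protein HuD that stabilises such mRNAs, read 8.53 in TRAP and 10.95 in unbound. Tial1, a related RNA-binding protein of stress granules, differed by 0.29, and the decapping enzyme gene Dcp2 differed by -0.07, a sign that turned after either median subtraction or quantile normalization. Zfp36l1 and Zfp36l2 stand on this list as well.

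**Figure D4:**
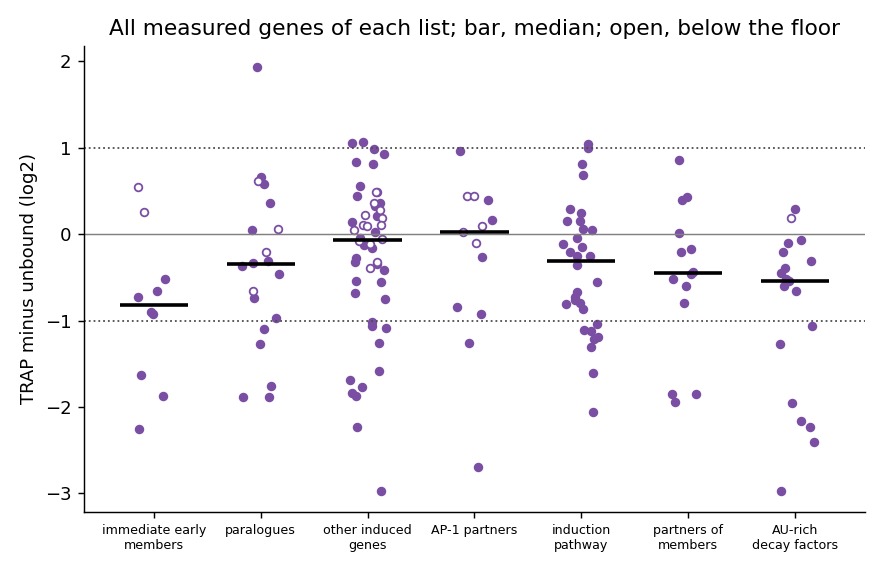
Difference (TRAP minus unbound, log2) of every measured gene in the immediate early set and in the 6 related lists; filled points lie above the floor on at least 1 array, open points below it on both, bars are medians over all measured genes and dotted lines mark 2-fold. The median bar of the immediate early genes is at -0.82, and those of the related lists lie between -0.55 and 0.0226.

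Immediate early genes are compact. Their gene spans on GRCm38.p6 ran from 1.52 to 20.9 kb with a median of 3.44 kb, while the median over 10513 genes above the floor was 25.5 kb. Of genes above the floor no longer than the longest member, 12.3% favoured unbound by 2-fold or more, and their median difference was 0.11. Of longer genes 23.4% did, with a median of -0.33. The members' median of -0.82 lay below that of either length class, but it includes members below the floor, which the classes leave out. The class limit is the span of Nr4a1, and the shorter class had a median span of 9.12 kb. The part of gene length in the members' differences was not tested.

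Most markers of the other cell types were lower in TRAP, as Dusp1, Btg2 and Nr4a1 were. Granule neuron markers were lower in 9 of 10 cases, each by 2-fold or more, with a summed linear signal of 10575 in TRAP and 32691 in unbound. Granule progenitor markers were lower in 10 of 10, 5 by 2-fold or more, with sums of 6067 in TRAP and 13271 in unbound. Astroglial markers were lower in 11 of 12, with sums of 8504 in TRAP and 21271 in unbound, and oligodendroglial ones in 10 of 10, with 1552 in TRAP and 5828 in unbound. With array medians subtracted, granule progenitor markers were lower in 8 of 10 and oligodendroglial ones in 9 of 10. Of the granule neuron markers, 6 were then lower by 2-fold or more. Interneuron markers were lower in 7 of 8, 5 by 2-fold or more, with sums of 3290 in TRAP, of which Prkcd gave 1771, and 5271 in unbound. Choroid plexus markers were lower in 4 of 5, 1 by 2-fold or more, with sums of 1076 in TRAP and 7840 in unbound, of which Ttr gave 703 in TRAP and 7281 in unbound. For microglia 3 of 10 markers were above the floor on at least 1 array, for endothelium 1 of 8, for mural cells and fibroblasts 5 of 8, and for erythroid cells 0 of 2. Over these lists the differences ran from -3.92 for Gfap, an astrocyte filament gene, to 2.65 for Prkcd, a kinase gene on the interneuron list. The part of these cells in the differences of the immediate early genes was not tested.

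The medians of all probe sets were 6.92 (TRAP) and 7.25 (unbound). Subtracting the array medians raised every difference by 0.33. It moved the median of all genes from 0.10 to 0.43 and that of the genes above the floor to 0.20. The members then had a median of -0.49 and a range from -1.92 to 0.88. Quantile normalization gave a member median of -0.50 and removal of a lowess trend -0.69, where the medians of all genes were 0.065 and 0.0038. No member changed sign under these scalings, and Dusp1, Btg2 and Nr4a1 were the 3 genes at least 2-fold lower in TRAP under each. Jun came nearest to 0, at -0.19 with the array medians subtracted. The shares of all genes moved more. By 2-fold or more, 10.1% favoured TRAP and 6.8% unbound with the array medians subtracted, 6.67% TRAP and 8.6% unbound after quantile normalization, and 5.2% TRAP and 10.1% unbound with the lowess trend removed. Over the genes above the floor the shares were 16.1% for TRAP and 11.8% for unbound with the array medians subtracted, and 11.8% for TRAP and 14.1% for unbound after quantile normalization. At 1.5-fold, 4 members were lower in TRAP and Junb was higher with the array medians subtracted, where 34.2% of all genes favoured TRAP and 12.3% unbound.

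**Figure D5:**
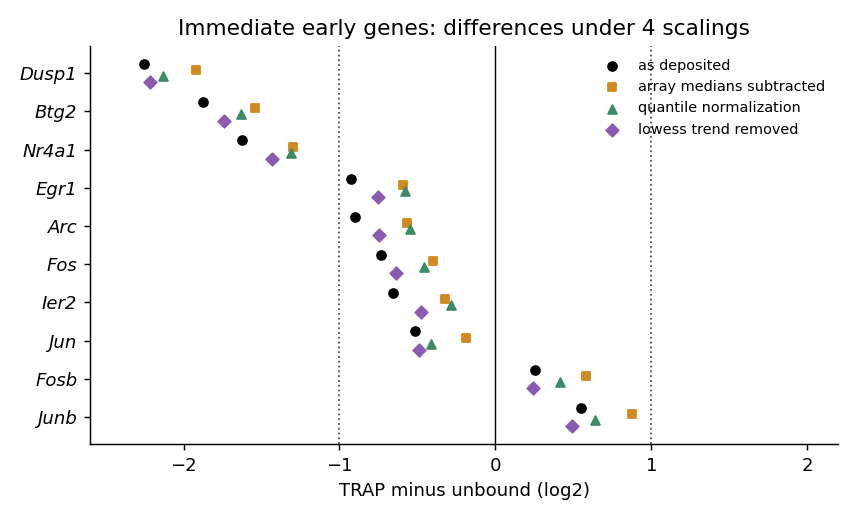
Difference (TRAP minus unbound, log2) of each immediate early gene as deposited and under 3 other scalings of the arrays; dotted lines mark 2-fold. Every symbol of Dusp1, Btg2 and Nr4a1 lies left of the 2-fold line, and the symbols of Fosb and Junb lie right of 0 and left of the 2-fold line, with Junb reaching 0.88.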

How the data were processed

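Array data of the TRAP and unbound fractions were used as deposited: the authors made 1 log2 value per probe set and array using Affymetrix Power Tools (named in the submitters' processing notes). Its version, background correction, normalization and log base are not given in the sources used for this work. The values, from 3.15 to 13.7, were read as log2. Of 22097 probe sets, 20999 name 1 gene in the platform annotation, 91 name several and were not used, and 1007 have no name here. Entrez identifiers matched 20959 of those naming 1 gene to RefSeq GRCm38.p6 symbols. Probe sets were averaged per gene. The floor, the 2-fold rule and other settings (3 scalings, the brightest probe set, other floors, thresholds of 1.5-fold and 4-fold) are those given with the results. Python 3.11.15, pandas 2.3.3 and statsmodels 0.14.6 (lowess, span 0.3) were used, and the scripts were tested on simulated data. Protein sequences were not analysed here.

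Each fraction has 1 array here, so the number of arrays limits the precision and no test was run. The immediate early genes and the related lists were chosen with earlier results of these data known. Named are all members, Pcp2 and Rpl10a, the members' measured paralogues, and genes from both ends of each list by difference among those above the floor (4 a side for induced and pathway genes, 2 a side for the others, 1 a side for cell type markers). Srf was singled out after its value was seen.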

Additional observations from a re-analysis of the deposited data

How the results depend on the processing

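Each of the 10 genes kept its sign and its side of 2-fold under subtraction of the array medians, quantile normalization, removal of a lowess trend and use of the brightest probe set, which changes nothing where a gene has 1 probe set. The count of members at least 2-fold higher in unbound was 3 under those settings. At 1.5-fold it was 7 as deposited, 4 with array medians subtracted, 3 after quantile normalization and 6 with the trend removed. The shares of all genes there were 19.5%, 12.3%, 15.8% and 18.4%. At 4-fold the member count was 1 as deposited, after quantile normalization and with the trend removed, and 0 with array medians subtracted. The shares of all genes at 4-fold were 2.37%, 1.7%, 1.94% and 1.24% in that order. The count higher in TRAP was 0 at 2-fold and 4-fold under each of the 4 scalings. At 1.5-fold it was 0 as deposited and with the trend removed, where 12.5% and 13.0% of all genes favoured TRAP. It was 1 (Junb) with array medians subtracted and 1 after quantile normalization, where 34.2% and 17.0% of all genes did. Thresholds combined with another scaling were chosen after seeing the data. Floors remove members by the array on which they are high, so values over the members that passed are not given. Among the related lists, over genes above the floor, the median of the other induced genes was -0.32 as deposited, 0.00896 with array medians subtracted and 0.0315 after quantile normalization, that of the induction pathway -0.31 as deposited and 0.0246 with array medians subtracted, and that of the AP-1 partners -0.55 as deposited and 0.0226 with no floor, where 5 genes below the floor entered. The medians of paralogues, member partners and decay factors stayed below 0, at -0.42, -0.45 and -0.57 as deposited and -0.085, -0.12 and -0.24 with array medians subtracted. Over all genes above the floor the median was -0.13 as deposited, 0.20 with array medians subtracted and 0.045 after quantile normalization. No paired analysis was possible because each fraction has 1 array. Neither leaving out an array nor a test was possible with 1 array per fraction.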
